A study of Homo sapiens with 12 samples.

Results

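In all, 32 genes of cholesterol synthesis, sterol sensing, uptake and transport were followed in MDA-MB-231 cells whose mitochondrial tRNAs had been targeted with antisense oligonucleotides. The 32 members were taken by gene symbol from the 52859 genes of the count table, and 30 of them had enough reads to be among the 16051 genes tested. MDA-MB-231 is a long-established line of human breast cancer cells of the triple-negative type. All 12 libraries came from cells transfected with 20 nM of a locked nucleic acid (LNA, a chemically stabilised short oligonucleotide that pairs with a complementary RNA) and collected on day 2. The 4 groups of 3 libraries received a control LNA, mtAsn-1 or mtAsn-2 (2 LNAs directed at the mitochondrial asparagine tRNA), or mtLys, directed at the mitochondrial lysine tRNA. The control group also received an LNA and the lipid reagent, and no untransfected cells are among the groups. The study uses 1 cell line. Nothing in the labels says that the replicates are separate cultures. The p-values therefore speak only of the spread between these libraries, and that spread may be technical.

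Cells make cholesterol from acetyl-CoA through mevalonate, isoprenoid units, squalene and lanosterol, in the cytosol and endoplasmic reticulum. When sterols in the endoplasmic reticulum are low, SCAP escorts the transcription factor SREBP-2, the product of SREBF2, to the Golgi, where it is cut and released to activate the synthesis genes; when sterols are high, the INSIG proteins hold the complex back. An excess of sterol derivatives activates LXR receptors, which raise the export pump ABCA1 and MYLIP, a ubiquitin ligase that removes lipoprotein receptors from the cell surface.

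Total counts ran from 17978825 to 37708993 per library, and the correlation between replicates over all tested genes was 0.9925 to 0.9963. Levels below are CPM, the reads of a gene scaled to the library size, with TMM factors that correct library sizes for composition. Libraries are numbered 1 to 3 in each group as the labels number the replicates. The gene of the targeted asparagine tRNA had 1 to 6 reads in every library, too few to check the labels, and the gene of the lysine tRNA had 111 to 325 reads. The lysine tRNA gene (TRNK in the table) had a log2 fold change of 0.32 ± 0.15 (SE) under mtLys (adjusted p = 0.0979) and 0.36 ± 0.16 under mtAsn-1 (0.0748), and it rose under mtAsn-2 (0.44 ± 0.15, 0.0205). The TRNK value under mtLys passed as a rise with no low-count filter (0.0085), in the compared groups alone (0.0102) and without mtAsn-1 library 1 (0.0489) or 3 (0.0434) or mtAsn-2 library 3 (0.0342). That under mtAsn-1 passed with no low-count filter (0.00492), in the compared groups alone (0.0331) and without mtAsn-1 library 1 (0.00857) or mtAsn-2 library 2 (0.0355) or 3 (0.0224). The mtAsn-2 call was lost without control library 2 (0.0872) or 3 (0.0625) or mtAsn-2 library 1 (0.0559) or 2 (0.0913). The counted TRNK gene is 70 bases long, and whether its reads came from the mature tRNA was not tested. All 5 mesenchymal-like genes of this line were present, with VIM at 3019 CPM or more in each group mean and ZEB1 at 71.0 or more. Of the epithelial genes, CDH1 and PGR were near 0 and ESRP1 reached 1.54 CPM, while GATA3 stood at 11.2 to 13.4 CPM. Among markers of other cells, DCN had no read, PTPRC, CD3E and COL1A2 stayed at or below 0.28 CPM, and the endothelial gene PECAM1 stood at 11.9 CPM in control, 16.1 under mtAsn-1, 10.8 under mtAsn-2 and 17.2 under mtLys. The part of PECAM1-expressing cells in the results below was not tested.

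Per kilobase of exon, control levels of the 30 tested members spanned from 3.09 ± 0.16 CPM per kb for ABCA1 (SD, n = 3) to 124 ± 2.47 for NPC2, the soluble lysosomal protein that hands cholesterol to NPC1. SREBF1, which encodes SREBP-1, stood at 104 ± 7.24 CPM per kb and INSIG1 at 103 ± 4.26, a difference smaller than the spread between libraries. FDPS followed at 90.5 ± 2.04, DHCR7 at 77.1 ± 1.52 and EBP at 70.0 ± 1.60 CPM per kb. The remaining synthesis enzymes lay lower, from MSMO1 at 45.5 ± 0.798 down to LSS at 6.03 ± 0.275 and SC5D at 5.03 ± 0.208 CPM per kb. SREBF2 stood at 32.1 ± 1.96 CPM per kb, close to CYP51A1 at 34.7 ± 1.58. The genes INSIG2, SOAT1 and SQLE were within 1 SD of each other, at 10.0, 10.0 and 9.88 CPM per kb.

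**Figure D1:**
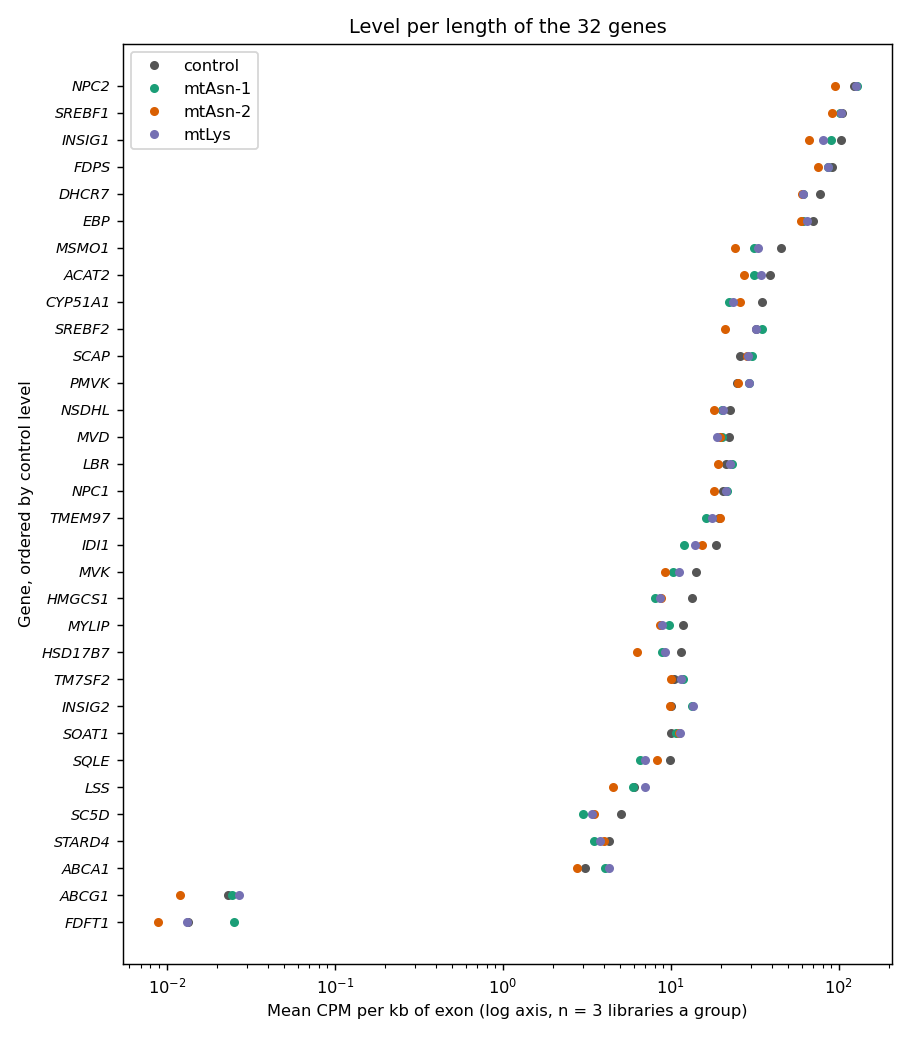
Mean level per kilobase of exon (horizontal log axis, CPM per kb) of the 32 genes, ordered by their control level, with 1 point for each of the 4 groups (n = 3 libraries each). NPC2, SREBF1 and INSIG1 are at the top at over 100 CPM per kb in control, and ABCG1 and FDFT1 lie far below the other 30. Reads of FDFT1 may be split with a copy of the gene on a scaffold, so its point may understate its level.

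The bases before the start site are shown for 5 members. These include the regulator SREBF2, the early synthesis gene HMGCS1 and the later genes MSMO1 and HSD17B7 (both lowest under mtAsn-2). LSS, whose direction differed between LNAs, is also among them. The printed windows begin 250 bases before the RefSeq start (GRCh38.p14) and stop at the span counted for the gene. Matches were counted in all 250 bases, some of which lie inside the counted span, as for MVK and INSIG1. For a gene with several RefSeq starts, the counts of genes with a match used the window with the most matches. This held for members and tested genes alike, while the printed window is that of the start nearest the counted gene's beginning. Capitals mark matches, on either strand, to a sterol regulatory element (TCACNCCAC), to an E-box form that SREBPs bind (TCACGTGA) or to the NF-Y box (CCAAT, which reads ATTGG when on the reverse strand).
SREBF2 (chr22:41832855-41833104, plus strand): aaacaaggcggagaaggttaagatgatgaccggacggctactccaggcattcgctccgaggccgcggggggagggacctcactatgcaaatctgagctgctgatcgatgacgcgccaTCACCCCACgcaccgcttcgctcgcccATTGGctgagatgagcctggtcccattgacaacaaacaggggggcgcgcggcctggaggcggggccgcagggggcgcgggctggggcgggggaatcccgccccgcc
HMGCS1 (chr5:43313478-43313662, minus strand): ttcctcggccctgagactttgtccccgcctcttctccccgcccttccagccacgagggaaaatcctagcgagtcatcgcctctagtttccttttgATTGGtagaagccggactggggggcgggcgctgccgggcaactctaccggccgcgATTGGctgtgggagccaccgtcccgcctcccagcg
MSMO1 (chr4:165327419-165327665, plus strand): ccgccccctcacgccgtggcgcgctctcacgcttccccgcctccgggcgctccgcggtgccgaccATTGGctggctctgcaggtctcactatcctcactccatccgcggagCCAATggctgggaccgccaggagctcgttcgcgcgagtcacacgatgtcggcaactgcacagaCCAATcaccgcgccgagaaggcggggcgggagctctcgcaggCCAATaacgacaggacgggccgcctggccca
HSD17B7 (chr1:162790452-162790701, plus strand): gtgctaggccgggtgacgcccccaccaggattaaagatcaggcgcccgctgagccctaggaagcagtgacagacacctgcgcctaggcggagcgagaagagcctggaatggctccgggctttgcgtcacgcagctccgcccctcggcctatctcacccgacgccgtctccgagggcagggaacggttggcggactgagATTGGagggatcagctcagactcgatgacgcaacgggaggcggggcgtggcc
LSS (chr21:46228825-46229024, minus strand): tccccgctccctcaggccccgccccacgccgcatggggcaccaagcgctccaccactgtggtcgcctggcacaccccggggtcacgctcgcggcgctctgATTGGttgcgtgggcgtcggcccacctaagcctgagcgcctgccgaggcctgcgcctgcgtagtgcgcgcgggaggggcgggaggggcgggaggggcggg
An exact match to TCACNCCAC was present in 1 of the 28 members with a window, SREBF2. There the match begins 133 bases before the start, and an NF-Y box lies 106 bases before the start. Forms of the element with other letters, or outside the 250 bases, were not searched, so a missing match does not show that a gene lacks one. The exact match was found in 1.15% of the 11195 tested genes that have a window. NF-Y boxes were found in 20 of the 28 members (71.4%), against 40.7% of the tested genes, and 13 members had at least 2, against 14.7% of the tested genes. MSMO1 had 4 and HMGCS1 2 of these boxes. The E-box form TCACGTGA was found in 1 member, INSIG1, 56 bases before its start, and in 1.92% of tested genes. Its core CACGTG, which any TCACGTGA match also contains, was found in 4 members (14.3%) and in 10.8% of tested genes. These matches describe letters in the window and not bound sites.

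Against the control LNA, most synthesis enzymes were lower with each of the tRNA LNAs, by up to 46.7% (MSMO1 under mtAsn-2). With mtAsn-1, 16 of the 30 tested members fell and 4 rose, where 24.2% of all tested genes fell and 24.3% rose (edgeR quasi-likelihood test, adjusted p under 0.05). With mtAsn-2, 22 members fell and 2 rose, against 27.0% and 24.1% of all genes. With mtLys, 15 members fell and 6 rose, against 23.9% and 24.6% of all genes. The median log2 fold change of the tested members was -0.16 under mtAsn-1, -0.27 under mtAsn-2 and -0.14 under mtLys, and over all tested genes it was within 0.01 of 0 in each comparison. Members that fell in all 3 comparisons included HMGCS1, MVK, IDI1, SQLE, CYP51A1, MSMO1, HSD17B7, SC5D, DHCR7, INSIG1 and MYLIP. The 3 comparisons share their control libraries. In bulk RNA, a large change in some cells and a small change in all cannot be told apart.

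**Figure D2:**
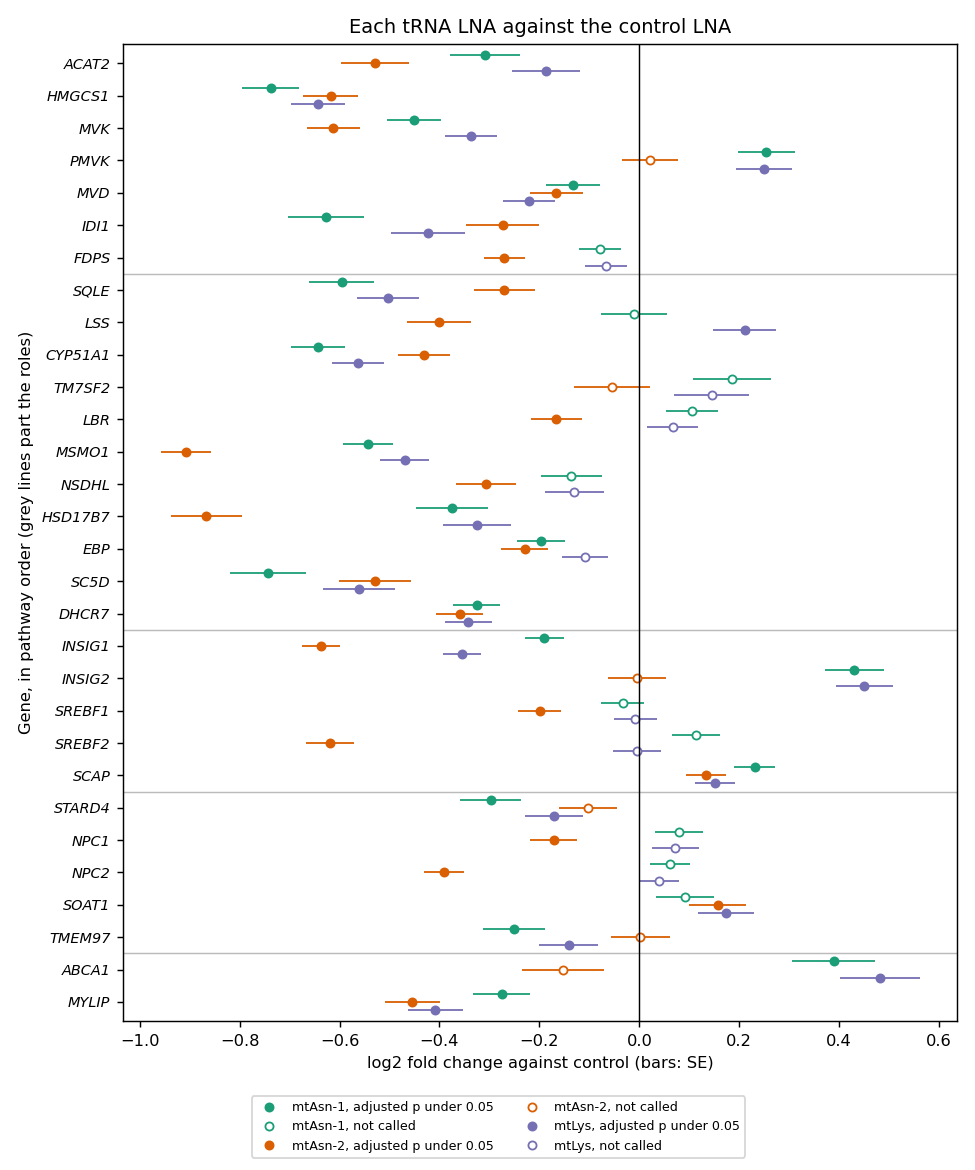
Log2 fold change against the control LNA (horizontal axis, bars are SE) for the 30 tested genes in pathway order, with 1 colour per tRNA LNA and filled points for an adjusted p under 0.05. Most enzymes from ACAT2 to DHCR7 lie left of 0 for all 3 LNAs, while SREBF2 lies left of 0 at -0.62 under mtAsn-2 and near 0 with the other LNAs.

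Of the 7 genes of the mevalonate and isoprenoid steps, 5 fell and 1 rose under mtAsn-1, 6 fell and none rose under mtAsn-2, and 5 fell and 1 rose under mtLys. In these comparisons between 23.9% and 27.0% of all tested genes were called in each direction. HMGCS1 (chromosome 5, 43287470 to 43313477, minus strand) encodes the cytosolic HMG-CoA synthase, which commits acetyl units to mevalonate. It stood at 78.9, 93.6 and 87.9 CPM in the control libraries, 53.2, 49.8 and 53.0 under mtAsn-1, 59.1, 56.5 and 54.2 under mtAsn-2, and 53.2, 56.0 and 57.7 under mtLys. Every library of the 3 tRNA LNAs was below every control library. On the log2 scale the fold change was -0.74 ± 0.057 (SE) under mtAsn-1 (adjusted p = 1.79e-11), -0.62 ± 0.054 under mtAsn-2 (1.80e-10) and -0.64 ± 0.055 under mtLys (1.18e-10).

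IDI1 (chromosome 10, 1039152 to 1056704, minus strand), the isomerase that makes the reactive isoprenoid unit, stood at 112, 127 and 125 CPM in control, 84.1, 67.0 and 83.4 under mtAsn-1, 105, 97.2 and 98.4 under mtAsn-2, and 83.9, 94.6 and 93.0 under mtLys. All tRNA LNA libraries were below control, and those under mtAsn-2 were the nearest to it. Its log2 fold change was -0.63 ± 0.076 under mtAsn-1 (adjusted p = 4.18e-06), -0.27 ± 0.073 under mtAsn-2 (0.00504) and -0.42 ± 0.073 under mtLys (0.000173). MVK (chromosome 12, 109573461 to 109598125, plus strand), mevalonate kinase, was at 59.8, 64.0 and 59.2 CPM in control, 46.0, 41.2 and 46.5 under mtAsn-1, 39.4, 39.1 and 41.4 under mtAsn-2, and 46.9, 50.6 and 47.7 under mtLys. Here the mtAsn-2 libraries included the lowest values, and no tRNA LNA library reached control. Its log2 fold change was -0.45 ± 0.054 under mtAsn-1 (adjusted p = 8.45e-08), -0.61 ± 0.053 under mtAsn-2 (1.19e-10) and -0.34 ± 0.052 under mtLys (4.71e-06).

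ACAT2 (chromosome 6, 159762045 to 159779112, plus strand), the cytosolic thiolase of the first step, stood at 66.7, 75.5 and 71.1 CPM in control, 61.2, 48.8 and 61.5 under mtAsn-1, 50.1, 48.3 and 49.6 under mtAsn-2, and 58.1, 65.6 and 64.0 under mtLys. All tRNA LNA libraries were below the lowest control, by little for the upper 2 under mtLys. It fell by 0.31 ± 0.070 on the log2 scale under mtAsn-1 (adjusted p = 0.00108), by 0.53 ± 0.069 under mtAsn-2 (1.58e-06) and by 0.19 ± 0.068 under mtLys (0.0288). The last of these calls was lost without control library 2 (adjusted p = 0.149), control library 3 (0.0645) or mtLys library 1 (0.146). MVD, which decarboxylates mevalonate diphosphate, fell by 0.13 under mtAsn-1 (adjusted p = 0.0444), 0.17 under mtAsn-2 (0.00935) and 0.22 under mtLys (0.000989). Its mtAsn-1 call was lost without control library 1 (0.156) or 3 (0.0867), mtAsn-1 library 2 (0.0623) or 3 (0.196), mtAsn-2 library 1 (0.0503) or 2 (0.0556) or mtLys library 3 (0.0526), and its mtAsn-2 call without control library 1 (0.0527). The mtAsn-1 call of MVD was also lost in DESeq2 (0.0659), with no low-count filter (0.0886) and in a fit of the compared groups alone (0.0704). FDPS, the farnesyl diphosphate synthase, fell under mtAsn-2 (log2 fold change -0.27 ± 0.041, adjusted p = 3.07e-06) and had values of -0.08 and -0.07 under mtAsn-1 and mtLys, which did not pass. PMVK, phosphomevalonate kinase, went the other way and rose by 0.25 ± 0.057 under mtAsn-1 (adjusted p = 0.000558) and by 0.25 ± 0.055 under mtLys (0.00046), with 0.02 and no call for mtAsn-2. Exons of ACAT2, MVK, IDI1 and FDPS overlap genes on the other strand, and the sources used here do not say whether counting used strand, so reads of those neighbours may be included.

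Of the 11 tested genes of the squalene and sterol steps, 7 fell under mtAsn-1 and none rose, 10 fell under mtAsn-2 and none rose, and 6 fell and 1 rose under mtLys. The share of all tested genes called in each direction was between 23.9% and 27.0%. SQLE (chromosome 8, 124998505 to 125022283, plus strand), squalene monooxygenase, stood at 31.4, 34.9 and 30.9 CPM in control, 22.8, 19.4 and 22.1 under mtAsn-1, 27.3, 26.1 and 27.4 under mtAsn-2, and 22.6, 23.2 and 23.0 under mtLys. All tRNA LNA libraries were below control, and mtAsn-2 lay between control and the other LNAs. SQLE had a log2 fold change of -0.60 ± 0.066 under mtAsn-1 (adjusted p = 1.72e-08), -0.27 ± 0.061 under mtAsn-2 (0.000474) and -0.50 ± 0.062 under mtLys (1.26e-07). CYP51A1 (chromosome 7, 92112149 to 92134745, minus strand), the lanosterol demethylase, had the same order. It was at 115, 116 and 107 CPM in control, 74.4, 64.8 and 76.3 under mtAsn-1, 85.7, 83.5 and 81.2 under mtAsn-2, and 72.2, 79.6 and 76.7 under mtLys. No tRNA LNA library overlapped control, and the log2 fold changes were -0.64 ± 0.054 (adjusted p = 9.5e-11), -0.43 ± 0.052 (6.04e-08) and -0.56 ± 0.052 (6.65e-10) for mtAsn-1, mtAsn-2 and mtLys.

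MSMO1 (chromosome 4, 165327666 to 165343164, plus strand), the methylsterol monooxygenase that begins removal of the methyl groups at carbon 4 of the sterol ring, was at 108, 111 and 110.1 CPM in control. It was at 76.6, 74.6 and 74.8 CPM under mtAsn-1, 59.0, 55.8 and 60.5 under mtAsn-2, and 74.9, 86.2 and 76.4 under mtLys. The mtAsn-2 libraries were below all others. Its log2 fold change was -0.54 ± 0.050 under mtAsn-1 (adjusted p = 6.29e-10), -0.91 ± 0.050 under mtAsn-2 (8.18e-15) and -0.47 ± 0.049 under mtLys (5.57e-09). HSD17B7 (chromosome 1, 162790702 to 162812818, plus strand), the ketone reductase of the same sequence of steps, was at 21.3, 21.3 and 22.1 CPM in control, 15.3, 17.3 and 17.1 under mtAsn-1, 11.9, 11.3 and 12.2 under mtAsn-2, and 16.1, 18.1 and 17.3 under mtLys. It too was lowest in the 3 mtAsn-2 libraries, which overlapped no other group. HSD17B7 had log2 fold changes of -0.38 ± 0.072 (adjusted p = 8.21e-05), -0.87 ± 0.071 (3.92e-11) and -0.33 ± 0.068 (0.000239) in the same order of LNAs.

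SC5D (chromosome 11, 121292771 to 121313410, plus strand), the lathosterol desaturase, stood at 34.7, 37.2 and 34.6 CPM in control, 22.7, 17.6 and 22.9 under mtAsn-1, 25.9, 24.4 and 23.6 under mtAsn-2, and 22.7, 25.9 and 23.8 under mtLys. The 9 tRNA LNA libraries lay well below control, and library 2 of mtAsn-1 was the lowest. SC5D had a log2 fold change of -0.74 ± 0.076 under mtAsn-1 (adjusted p = 7.58e-09), -0.53 ± 0.071 under mtAsn-2 (5.66e-07) and -0.56 ± 0.072 under mtLys (3.06e-07). LSS (chromosome 21, 46188446 to 46228824, minus strand), the cyclase that makes lanosterol, was the 1 member that fell with one LNA and rose with another among the synthesis enzymes. It stood at 31.6, 29.0 and 31.1 CPM in control, 32.4, 27.9 and 30.4 under mtAsn-1, 23.3, 21.0 and 24.9 under mtAsn-2, and 34.4, 35.4 and 36.2 under mtLys. The mtAsn-1 libraries overlapped control, while mtAsn-2 lay below and mtLys above all of them. The log2 fold change was -0.01 ± 0.066 under mtAsn-1 (adjusted p = 0.905), -0.40 ± 0.065 under mtAsn-2 (6.89e-06) and 0.21 ± 0.063 under mtLys (0.00633), and the mtLys call was lost without control library 2 (0.0540).

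Of the other sterol enzymes, DHCR7, which makes cholesterol from its last precursor, fell by 0.33, 0.36 and 0.34 on the log2 scale under mtAsn-1, mtAsn-2 and mtLys (adjusted p = 1.75e-06, 2.22e-07 and 6.3e-07), from 216 ± 4.25 CPM (SD, n = 3) to between 168 and 172. EBP, the sterol isomerase, fell by 0.20 under mtAsn-1 (adjusted p = 0.00116) and 0.23 under mtAsn-2 (0.00015). With mtLys its value was -0.11 (0.0556), which passed without mtAsn-1 library 2 (0.0424) or mtAsn-2 library 3 (0.0471), with a stricter low-count filter (0.0449) and in the compared groups alone (0.0453). NSDHL, the dehydrogenase that acts between MSMO1 and HSD17B7, fell under mtAsn-2 (-0.31 ± 0.060, adjusted p = 9.16e-05). Its values of -0.14 under mtAsn-1 (0.0706) and -0.13 under mtLys (0.0727) did not pass, and both passed without control library 1 (0.0186 and 0.0191) or mtAsn-1 library 1 (0.00639 and 0.0494), the mtLys value also without mtAsn-1 library 2 (0.0467) and in the compared groups alone (0.0465). LBR and TM7SF2 encode sterol C14 reductases, LBR being also a protein of the inner nuclear membrane. LBR fell under mtAsn-2 (log2 fold change -0.17 ± 0.051, adjusted p = 0.00808), a call lost without mtAsn-2 library 3 (0.108). Its value under mtAsn-1 was 0.11 (0.0962), which passed without mtAsn-1 library 2 (0.0479) or mtAsn-2 library 3 (0.0396). TM7SF2 had values of 0.19 under mtAsn-1 (0.0511), -0.06 under mtAsn-2 (0.573) and 0.15 under mtLys (0.112), and without control library 1 the first and last passed (0.0127 and 0.0287). The mtAsn-1 value of TM7SF2 also passed without mtAsn-2 library 1 (0.0468) or 3 (0.0348) or mtLys library 2 (0.0469), with RLE factors (0.0498), with no low-count filter (0.0446) and in the compared groups alone (0.0473). Exons of CYP51A1 and TM7SF2 overlap genes on the other strand.

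Among the 5 sterol sensing genes, 1 fell and 2 rose under mtAsn-1, 3 fell and 1 rose under mtAsn-2, and 1 fell and 2 rose under mtLys. The share of all tested genes called in each direction was between 23.9% and 27.0%, so single calls among 5 genes are near it. SREBF2 (chromosome 22, 41833105 to 41907308, plus strand) was at 254, 225 and 233 CPM in control, 259.5, 266 and 246 under mtAsn-1, 148, 149 and 168 under mtAsn-2, and 236, 241 and 233 under mtLys. The mtAsn-2 libraries were far below the other 9, which overlapped between control and each other LNA. The log2 fold change was -0.62 ± 0.049 under mtAsn-2 (adjusted p = 3e-11), 0.11 ± 0.048 under mtAsn-1 (0.0538) and -0.01 ± 0.048 under mtLys (0.943). The mtAsn-1 value passed without control library 1 (0.00841), mtAsn-1 library 3 (0.0288) or mtAsn-2 library 3 (0.0254), with no low-count filter (0.0285) and in the compared groups alone (0.0449). SREBF2 was 257 ± 9.98 CPM under mtAsn-1, 155 ± 11.2 under mtAsn-2 and 237 ± 4.07 under mtLys, against 237 ± 14.5 in control. ACAT2, MVK, MSMO1, HSD17B7, DHCR7, INSIG1 and MYLIP, which fell with all 3 LNAs, had their largest falls under mtAsn-2. HMGCS1, IDI1, SQLE, CYP51A1 and SC5D, which also fell with all 3, had their smallest falls there. MVD fell with all 3 too, most under mtLys (-0.22). That fall was not called different from those under mtAsn-1 (adjusted p = 0.412) or mtAsn-2 (0.405). Several of the other orders were not called differences either. Set directly against mtAsn-1 and mtLys, mtAsn-2 gave adjusted p = 0.588 and 0.795 for DHCR7, and 0.0857 and 0.731 for HMGCS1. For MYLIP (0.521), SC5D (0.744) and IDI1 (0.106) only the difference from mtLys missed the threshold. Whether the SREBF2 level had a part in any of these falls was not tested.

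INSIG1 (chromosome 7, 155297772 to 155310235, plus strand), itself a target gene of SREBPs, was at 314, 341 and 326 CPM in control, 282, 295 and 283 under mtAsn-1, 211, 208 and 212 under mtAsn-2, and 256, 255 and 256 under mtLys. The 4 groups did not overlap, with control highest, then mtAsn-1, mtLys and mtAsn-2. The log2 fold change was -0.19 ± 0.038 (adjusted p = 0.000152), -0.64 ± 0.038 (5.91e-14) and -0.35 ± 0.038 (9.77e-09) for mtAsn-1, mtAsn-2 and mtLys. INSIG2, the second INSIG gene, rose by 0.43 ± 0.059 under mtAsn-1 (adjusted p = 6.62e-07) and 0.45 ± 0.057 under mtLys (1.9e-07), from 37.4 ± 3.65 CPM (SD, n = 3) to 50.1 ± 0.986 and 50.8 ± 1.84. With mtAsn-2 it stood at 37.1 ± 0.978 CPM, within the control range. SCAP rose with all 3 LNAs, by 0.23, 0.13 and 0.15 on the log2 scale (adjusted p = 2.86e-05, 0.00667 and 0.00261). SREBF1 fell under mtAsn-2 (log2 fold change -0.20 ± 0.043, adjusted p = 0.000256) and had values of -0.03 and -0.01 under mtAsn-1 and mtLys, which did not pass. Exons of SREBF1 and SREBF2 overlap genes on the other strand.

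Among the 5 genes of intracellular transport and storage there were 2 falls and no rise for mtAsn-1, 2 falls and 1 rise for mtAsn-2, and 2 falls and 1 rise for mtLys, where between 23.9% and 27.0% of all tested genes were called in each direction. NPC2 fell under mtAsn-2 from 179 ± 3.57 to 136 ± 4.45 CPM (log2 fold change -0.39 ± 0.040, adjusted p = 3.22e-09) and stood at 187 ± 6.55 and 184 ± 3.40 CPM under mtAsn-1 and mtLys, where it did not pass. NPC1, the lysosomal membrane protein that receives cholesterol from it, fell by 0.17 under mtAsn-2 (adjusted p = 0.00333), with values of 0.08 and 0.07 for mtAsn-1 and mtLys that did not pass. STARD4, a cytosolic sterol carrier, fell by 0.30 ± 0.061 under mtAsn-1 (adjusted p = 0.000189) and by 0.17 ± 0.058 under mtLys (0.0168). The mtLys libraries of STARD4 overlapped control, and that call was lost without control library 2 (0.0530) or 3 (0.102) or mtLys library 1 (0.141) or 2 (0.0573). With mtAsn-2 its value of -0.10 (0.139) passed without control library 1 (0.0453). TMEM97, the sigma-2 receptor, which binds NPC1, fell by 0.25 ± 0.062 under mtAsn-1 (adjusted p = 0.00127) and by 0.14 ± 0.059 under mtLys (0.0498), and had a value of 0.00 under mtAsn-2. Its mtLys call was lost with RLE factors (0.0509), with DESeq2 (0.0739), with no low-count filter (0.0651) and without any 1 of 8 libraries: control library 1 (0.113) or 2 (0.170), mtAsn-1 library 1 (0.0502) or 3 (0.0502), mtAsn-2 library 2 (0.0607) and mtLys library 1 (0.194), 2 (0.0567) or 3 (0.0877). SOAT1, which esterifies cholesterol for storage in droplets, rose by 0.16 ± 0.056 under mtAsn-2 (adjusted p = 0.0225) and by 0.17 ± 0.057 under mtLys (0.0131). Both calls were lost without control library 3 (0.109 and 0.0720), the first also without mtAsn-2 library 1 (0.0972) and the second without mtLys library 2 (0.133). Exons of NPC1, STARD4 and TMEM97 overlap genes on the other strand.

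Of the 2 tested genes linked to LXR, ABCA1 rose and MYLIP fell under mtAsn-1 and mtLys, and under mtAsn-2 MYLIP fell and ABCA1 did not pass. ABCA1 (chromosome 9, 104781006 to 104928232, minus strand), which exports cholesterol to lipid-poor apolipoproteins, was at 42.8, 39.0 and 42.6 CPM in control, 46.5, 61.7 and 54.7 under mtAsn-1, 36.9, 40.6 and 34.2 under mtAsn-2, and 60.2, 55.4 and 57.7 under mtLys. The libraries of mtAsn-1 and mtLys were above control, while those of mtAsn-2 overlapped it. The log2 fold change was 0.39 ± 0.083 under mtAsn-1 (adjusted p = 0.000798), 0.48 ± 0.080 under mtLys (7.45e-05) and -0.15 ± 0.082 under mtAsn-2 (0.133), the last passing without mtAsn-1 library 1 (0.0469) or mtAsn-2 library 2 (0.0476). MYLIP fell with all 3 LNAs, by 0.28, 0.45 and 0.41 on the log2 scale for mtAsn-1, mtAsn-2 and mtLys (adjusted p = 0.000219, 6.92e-08 and 5.48e-07), from 38.1 ± 1.87 CPM to 31.4 ± 1.21, 27.7 ± 1.08 and 28.6 ± 0.675. ABCG1, the second LXR-linked export pump, had 3 to 15 reads per library and was not tested.

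**Figure D3:**
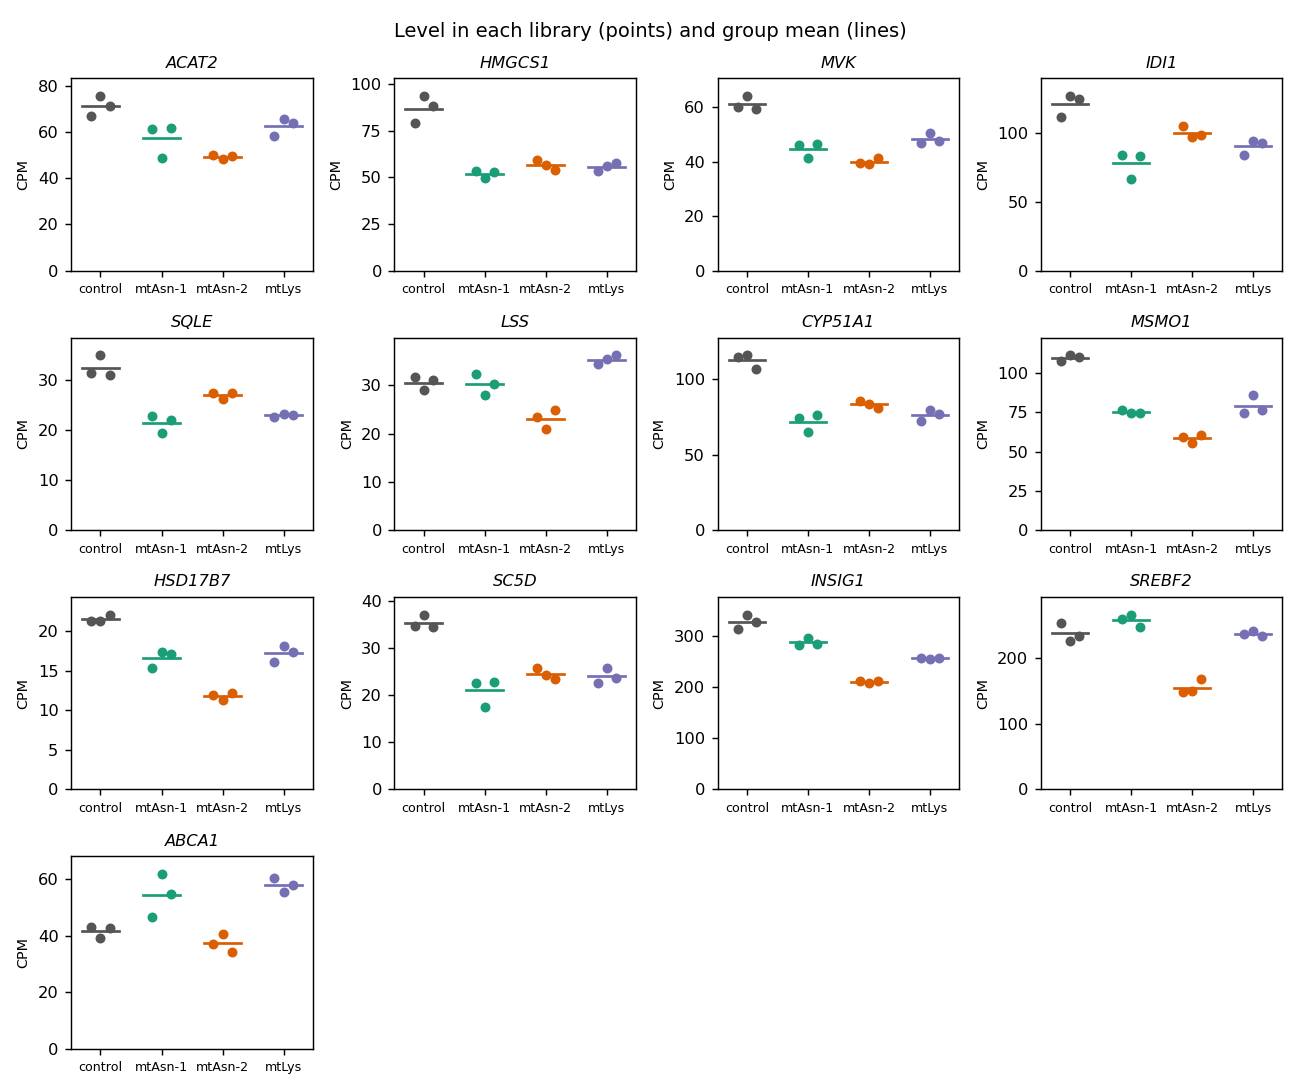
Level in CPM (vertical axes, from 0) of 13 genes in each of the 12 libraries, with 1 point per library and a line at the mean of each group of 3. The enzymes are lower with all 3 tRNA LNAs except LSS, SREBF2 is low under mtAsn-2 at 148 to 168 CPM, and ABCA1 is above control under mtAsn-1 and mtLys.

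FDFT1, the squalene synthase gene on chromosome 8, was counted at 1 to 4 reads per library and was not tested. A copy of the gene on a scaffold of the assembly, listed as FDFT1-2, held 220 to 476 reads, and reads of the gene may be split between the copies. Counted at FDFT1-2, the log2 fold change was -0.04 ± 0.086 under mtAsn-1 (adjusted p = 0.717), -0.49 ± 0.084 under mtAsn-2 (1.57e-05) and 0.04 ± 0.081 under mtLys (0.741). The scaffold copy of LSS had 0 reads in every library.

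Set directly against each other, the tRNA LNAs differed most where mtAsn-2 was one of the pair. Between mtAsn-1 and mtAsn-2, which are directed at the same tRNA, 19 of the 30 members were higher and 6 lower under mtAsn-1, against 24.6% and 21.9% of all tested genes. All 5 sterol sensing genes were among those higher under mtAsn-1. SREBF2 showed the largest of the 30 differences, 0.73 ± 0.049 on the log2 scale (adjusted p = 1.25e-12), a level 66.2% higher under mtAsn-1. ABCA1 was higher under mtAsn-1 by 0.54 ± 0.081 (2.63e-05), HSD17B7 by 0.49 ± 0.075 (3.59e-06), NPC2 by 0.45 ± 0.040 (2.56e-10), INSIG1 by 0.45 ± 0.038 (1.3e-10), LSS by 0.39 ± 0.066 (1.72e-05) and MSMO1 by 0.37 ± 0.051 (9.68e-07). The reverse held for 6 genes, led by IDI1 (-0.35 ± 0.075, adjusted p = 0.00111) and SQLE (-0.33 ± 0.065, 0.000152), with CYP51A1, SC5D, STARD4 and TMEM97. Of the 25 calls, 18 were made under every alternative and with any 1 library left out. The SCAP call (0.10, 0.0459) was lost with each of the other scalings, filters and models and without any of 8 libraries: control library 3 (0.0518), mtAsn-1 library 1 (0.160) or 2 (0.127), mtAsn-2 library 1 (0.126) or 2 (0.179) and mtLys library 1 (0.0566), 2 (0.0682) or 3 (0.0594). The ACAT2 call (0.0145) was lost without mtAsn-1 library 1 (0.0790) or 3 (0.0968) or mtAsn-2 library 2 (0.0567), and the MVK call (0.0168) without mtAsn-1 library 1 (0.0727) or 3 (0.109) or mtAsn-2 library 1 (0.0614) or 2 (0.0736). The NSDHL call (0.0232) was lost without mtAsn-1 library 1 (0.263) or mtAsn-2 library 2 (0.101), and the SC5D call (0.0244) without mtAsn-1 library 2 (0.210) or mtAsn-2 library 1 (0.0953). The TM7SF2 call (0.0105) was lost without mtAsn-2 library 1 (0.0823) or 2 (0.0506), and the MYLIP call (0.0113) without mtAsn-1 library 2 (0.0525) or mtAsn-2 library 2 (0.0655). With no low-count filter the MVK and MYLIP calls were lost too (0.0605 and 0.0567). HMGCS1 (-0.12, 0.0857) was not called, and it passed as lower under mtAsn-1 with no low-count filter (0.0276) and without mtAsn-2 library 3 (0.0474).

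Between mtAsn-2 and mtLys, 18 members were lower and 3 higher under mtAsn-2, against 25.7% and 22.9% of all tested genes. ABCA1 was lower under mtAsn-2 by 35.5% (log2 difference -0.63 ± 0.079, adjusted p = 2.61e-06), SREBF2 by 34.7% (-0.61 ± 0.048, 3.32e-11) and LSS by 34.6% (-0.61 ± 0.062, 3.25e-09). HSD17B7 differed by -0.54 ± 0.071 (2.81e-07), INSIG2 by -0.46 ± 0.055 (8.71e-08), MSMO1 by -0.44 ± 0.050 (2.36e-08) and NPC2 by -0.43 ± 0.040 (4.97e-10). SQLE was higher under mtAsn-2 (0.23 ± 0.061, 0.0025), as were CYP51A1 (0.13 ± 0.052, 0.0360) and TMEM97 (0.14 ± 0.058, 0.0417). The CYP51A1 call was lost without mtAsn-2 library 1 (0.107) or 2 (0.0614) or mtLys library 1 (0.201) or 3 (0.0681), and the TMEM97 call without the same 4 libraries (0.168, 0.0775, 0.173 and 0.0758). Lower calls were lost for EBP (0.0314) without mtAsn-2 library 1 (0.104) or 2 (0.185) or mtLys library 1 (0.103) or 2 (0.115), for TM7SF2 (0.0239) without mtAsn-2 library 1 (0.162) or 2 (0.100) or mtLys library 1 (0.0635) or 3 (0.104), and for NSDHL (0.0144) without mtAsn-2 library 2 (0.0764). The EBP call was also lost in DESeq2 (0.0577) and with no low-count filter (0.121). IDI1 (0.15, 0.106) passed without mtAsn-1 library 2 (0.0127), with no low-count filter (0.0022) and in the compared groups alone (0.00824).

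Between mtAsn-1 and mtLys, which are directed at different tRNAs, 1 member was higher, 1 lower and 28 did not pass, where 2.12% of all tested genes were higher and 3.14% lower. Log2 differences of the 30 members ran from -0.22 to 0.16. INSIG1 was higher under mtAsn-1 by 12.1% (0.16 ± 0.038, adjusted p = 0.00951). LSS was lower by 14.3% (-0.22 ± 0.064, 0.0374), a call lost without mtAsn-1 library 2 (0.179) or 3 (0.0879) or mtLys library 1 (0.0547), 2 (0.102) or 3 (0.145). IDI1 (-0.20 ± 0.076, 0.150) passed with no low-count filter (0.00112). A difference that misses the threshold does not show that the LNAs acted alike on these genes.

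**Figure D4:**
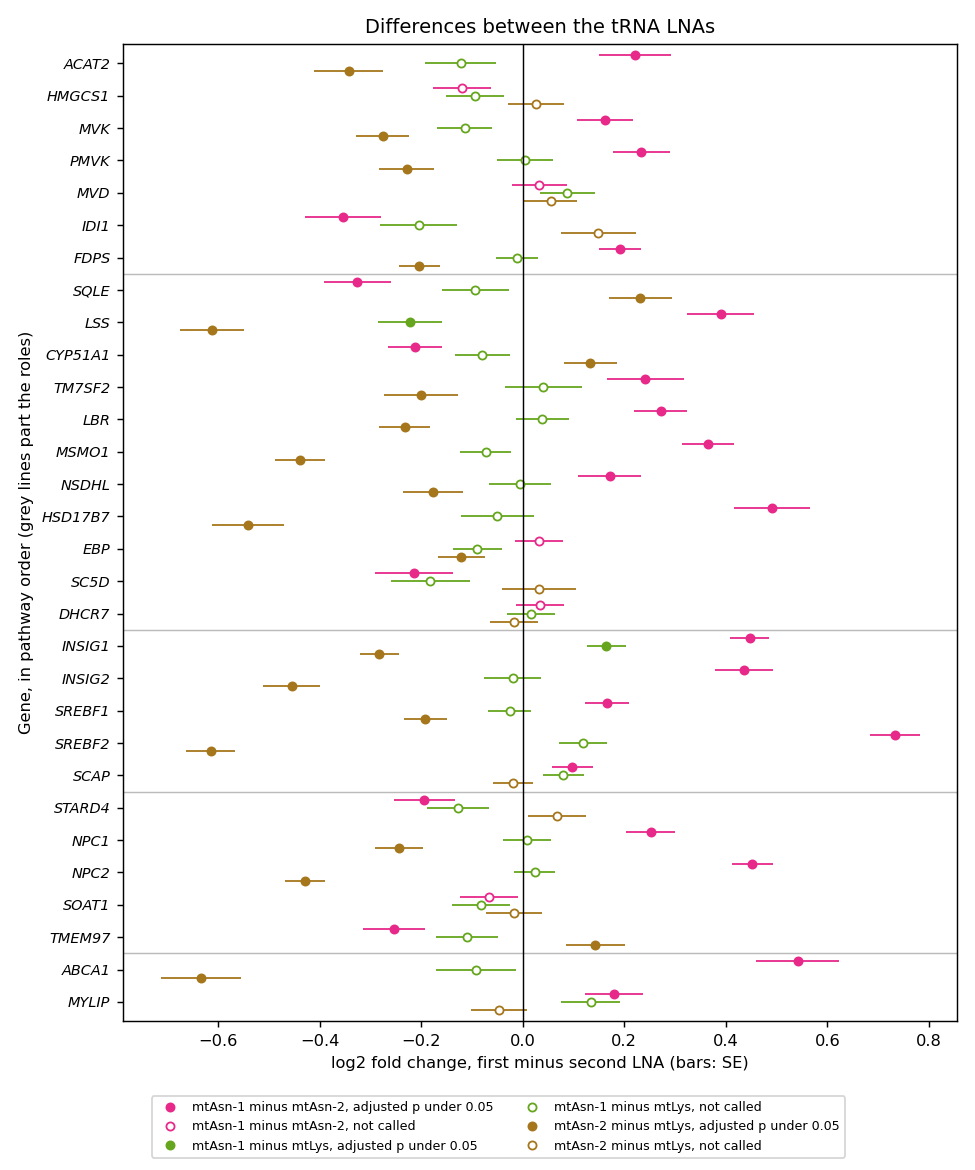
Log2 difference between tRNA LNAs (horizontal axis, first LNA minus second, bars are SE) for the 30 tested genes in pathway order, with filled points for an adjusted p under 0.05. Points of mtAsn-1 minus mtLys lie between -0.22 and 0.16, while SREBF2 reaches 0.73 for mtAsn-1 minus mtAsn-2 and -0.61 for mtAsn-2 minus mtLys.

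Other genes of the pathway were read from 3 further lists. Of 24 tested genes with other roles in sterol biology (receptors, proteases and ligases of the sensing machinery, hydrolases and carriers), 7 fell and 8 rose under mtAsn-1, 7 and 7 under mtAsn-2, and 4 and 9 under mtLys, with medians of -0.01, 0.07 and -0.00. Among all tested genes 24.2%, 27.0% and 23.9% fell and 24.3%, 24.1% and 24.6% rose in these comparisons, so the counts are mostly near the general share. LRP8, a lipoprotein receptor, rose with all 3 LNAs, by 0.70, 0.44 and 0.56 on the log2 scale (adjusted p = 1.78e-12, 8.79e-09 and 1.13e-10). VLDLR, a related receptor, fell with all 3, by 0.19, 0.49 and 0.22 (0.00209, 1.08e-09 and 0.00037). NR1H3, which encodes LXR alpha, rose from 8.41 ± 0.453 CPM to 13.7 ± 1.39 under mtAsn-1, 11.3 ± 1.22 under mtAsn-2 and 16.7 ± 0.701 under mtLys (adjusted p = 4.86e-07, 0.000266 and 3.54e-10). NCEH1, a cholesteryl ester hydrolase, rose by 0.24, 0.41 and 0.30 (0.000163, 2.58e-08 and 5.92e-06). ERG28, a scaffold protein of the sterol enzymes, fell by 0.31, 0.29 and 0.28 (2.18e-05, 3.72e-05 and 6.33e-05).

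In the branches that draw isoprenoids for ubiquinone, dolichol and protein prenylation, 1 of 10 tested genes fell and 2 rose under mtAsn-1, 2 fell and 3 rose under mtAsn-2, and 2 fell and 2 rose under mtLys, near or below the general share (between 23.9% and 27.0% in each direction). FNTA, the shared subunit of the farnesyl and geranylgeranyl transferases, fell by 0.43, 0.48 and 0.31 on the log2 scale (adjusted p = 5.96e-08, 3.24e-09 and 5.68e-06). ICMT, which methylates prenylated proteins, rose under mtAsn-1 (0.19, 7.69e-05) and mtLys (0.19, 5.05e-05) and fell under mtAsn-2 (-0.15, 0.000652). PDSS1, of ubiquinone side chain synthesis, rose under mtAsn-2 by 0.52 (2.4e-06), as did DOLK, dolichol kinase, by 0.25 (0.000709), and RABGGTB fell under mtLys by 0.21 (0.000107). Of 11 tested fatty acid genes driven by SREBP-1, 3 fell and 1 rose under mtAsn-1, 6 fell and 1 rose under mtAsn-2, and 3 fell and 1 rose under mtLys, with medians of -0.03, -0.33 and 0.00. The falls under mtAsn-1 and mtLys are near the 24.2% and 23.9% of all tested genes that fell, and under mtAsn-2 that share was 27.0%. SCD, the stearoyl-CoA desaturase, fell by 0.29, 0.53 and 0.27 (adjusted p = 3.13e-06, 5.42e-11 and 1.11e-05), and ME1, the cytosolic malic enzyme, by 0.29, 0.92 and 0.31 (0.000141, 2.14e-13 and 3.61e-05). ELOVL6, a fatty acid elongase, fell under mtAsn-2 by 0.52 (7.3e-11) and had values of -0.03 and 0.00 under mtAsn-1 and mtLys. ACSS2, which makes cytosolic acetyl-CoA from acetate, rose with all 3 LNAs by 0.65, 0.35 and 0.78 (6.75e-09, 3.96e-05 and 1.75e-10).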

How the data were processed

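The authors deposited 1 table of unnormalised read counts, with genes in lines and the 12 libraries in columns. RNA libraries were made with the TruSeq RNA kit, per the labels' protocols. FastQC, featureCounts, DESeq2, STAR 2.6.0a and the build hg38 are named in the submitters' processing notes, which do not state their roles. Whether counting used strand, and how multi-mapping reads were treated, is not given in the sources used. Of 52897 lines, 12 genes with broken lines and 26 fragments (at most 0.141% of a library) were left out.

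The test was the robust quasi-likelihood F test of edgeR 4.0.16 (R 4.3.3). A single model held the 12 libraries, with TMM scaling and the filterByExpr filter by group (minimum count 10, as a CPM cutoff to be met in about as many libraries as a group holds, and 15 reads in total). Its p-values were adjusted by Benjamini-Hochberg over 16051 genes, and 0.05 was the threshold. The common biological coefficient of variation was 0.0421. SE was worked out by dividing the absolute log2 fold change by the root of F, and SD is over 3 libraries. CPM used TMM library sizes. Log2 CPM used a prior count of 2. No pair of replicates agreed within sampling noise (chi-square per gene at least 2.43), so none was treated as a copy.

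The members and gene lists were chosen with earlier results of these data known. Every library is given for members called with an absolute log2 fold change of at least 0.5, or called in opposite directions; the other lists contribute at most 3 rises and 3 falls each, by smallest adjusted p. A gene that this rule also names is not reported here. Promoter sequences are from RefSeq (GRCh38.p14, 28 of 32 members matched). The printed windows leave out the counted gene span and coding genes' exons, while matches were counted in all 250 bases. Gene coordinates are those given in the deposited count table, and window coordinates are those of the promoter sequences. Results were recomputed with DESeq2 1.42.0, with RLE factors, unfiltered, with a stricter filter (a mean log2 CPM of 2, and 1 CPM in all libraries of some group), with a replicate block, in the compared groups alone, and without each library in turn. Figures were drawn with matplotlib 3.10.9 in Python 3.11.15.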

Additional observations from a re-analysis of the deposited data

How the results depend on the processing

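The counts of members called kept within 1.5 times of the reported ones under each alternative other than leaving out a library, with 2 exceptions: members lower in mtAsn-1 against mtLys went from 1 to 2 with no low-count filter, and members higher in mtAsn-2 against mtLys from 3 to 1 with a replicate block. The cause was not tested. With 1 library left out, members higher against control ranged from 4 to 7 for mtAsn-1 and from 1 to 2 for mtAsn-2. In mtAsn-1 against mtLys, members lower ranged from 0 to 1 and all genes called from 404 to 922, against 845. In mtAsn-2 against mtLys, members higher ranged from 1 to 4. No result reversed. Of the members called, 19 of 20 with mtAsn-1, 21 of 24 with mtAsn-2 and 16 of 21 with mtLys against control were called under every alternative, and 18 of 25, 1 of 2 and 16 of 21 in mtAsn-1 against mtAsn-2, mtAsn-1 against mtLys and mtAsn-2 against mtLys. Libraries with the same replicate number did not deviate together (correlations -0.10 to 0.04), so the numbers were not taken to pair libraries. The replicate block ended the calls of MVD (mtAsn-1 against control, adjusted p = 0.0653), TMEM97 (mtLys against control, 0.0691), SCAP (mtAsn-1 against mtAsn-2, 0.0672), and CYP51A1 and TMEM97 (mtAsn-2 against mtLys, 0.0567 and 0.0598), and no other member's call. Low counts kept FDFT1 and ABCG1 out of the test, with at most 4 and 15 reads. Reads of FDFT1 may be split with its scaffold copy FDFT1-2.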
